A study of Mus musculus with 12 samples.

Results

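The genes described here are 9 genes of central myelin and of the oligodendrocytes that make it: Mbp, Mobp, Cnp, Mag, Mal, Cldn11, Ugt8a, Mog and Opalin. They were chosen by symbol, and all 9 were found among the 55450 genes of the deposited table. Total RNA was sequenced from brains and livers of males, 7 to 9 weeks old, that were wild type (Vaultrc5+/+) or lacked both copies of Vaultrc5 (Vaultrc5-/-), which encodes a mouse vault RNA, a short non-coding transcript. Each of the 4 groups (wild-type brain, knockout brain, wild-type liver, knockout liver) had 3 libraries, and the sample titles name the wild-type libraries flx. No agent or treatment is given for any group. The labels do not say whether libraries of a group came from separate animals, so p-values measure only the spread between these libraries. They also do not say which part of the brain was taken.

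Oligodendrocytes wrap axons in many turns of compacted membrane, which speeds conduction along the axon. The proteins and lipids of that membrane are made in large amounts under lineage transcription factors such as SOX10, OLIG2 and MYRF, and white matter tracts and the brainstem are rich in them. Hepatocytes make no myelin, so liver serves here as the tissue in which the structural myelin genes have no known role.

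The stretches upstream of the starts are shown for 5 of the 9 genes, chosen after the windows were read to show differing motif content. The GC-richest window, that of Ugt8a (75.5% GC, 25 CG dinucleotides), is not among them. No link between these stretches and the levels of the 9 genes was tested. RefSeq promoter entries (GRCm38.p6) were present for 8 of the 9 genes, and Mbp had none. Each window runs 5' to 3' on the gene's strand from 250 to 51 bases before the RefSeq start, 200 bases long. The capitals mark the 6-letter strings ACAAAG or ACAATG, which resemble the core bound by SOX proteins, and the 7-letter strings CTGGCAC or CTGGTAC, which resemble the core bound by MYRF, searched on both strands. The windows are chr9:120149492-120149691 (plus strand) for Mobp, chr11:100574689-100574888 (plus) for Cnp, chr3:31149670-31149869 (plus) for Cldn11, chr17:37023449-37023648 (minus) for Mog and chr19:41077164-41077363 (minus) for Opalin.
Mobp: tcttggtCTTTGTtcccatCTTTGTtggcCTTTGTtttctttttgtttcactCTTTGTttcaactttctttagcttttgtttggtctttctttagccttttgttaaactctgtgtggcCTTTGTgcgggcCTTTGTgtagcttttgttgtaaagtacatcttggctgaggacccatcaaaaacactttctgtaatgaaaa
Cnp: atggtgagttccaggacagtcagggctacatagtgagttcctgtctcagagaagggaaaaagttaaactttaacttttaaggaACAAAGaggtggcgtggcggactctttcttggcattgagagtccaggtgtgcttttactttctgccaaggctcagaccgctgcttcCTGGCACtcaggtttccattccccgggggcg
Cldn11: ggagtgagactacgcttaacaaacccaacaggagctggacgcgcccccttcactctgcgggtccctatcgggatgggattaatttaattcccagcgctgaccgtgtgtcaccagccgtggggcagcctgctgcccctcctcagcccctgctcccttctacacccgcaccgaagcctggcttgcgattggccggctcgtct
Mog: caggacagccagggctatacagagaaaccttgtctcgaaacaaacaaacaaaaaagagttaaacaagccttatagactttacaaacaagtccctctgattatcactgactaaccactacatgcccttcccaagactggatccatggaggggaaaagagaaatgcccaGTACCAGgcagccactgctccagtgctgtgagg
Opalin: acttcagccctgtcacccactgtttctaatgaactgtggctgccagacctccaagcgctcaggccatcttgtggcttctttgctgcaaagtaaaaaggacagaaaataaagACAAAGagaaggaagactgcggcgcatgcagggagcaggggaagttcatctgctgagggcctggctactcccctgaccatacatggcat

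The Mobp window held 6 SOX-type matches, all reading CTTTGT on the gene's strand, and its GC content was 37.5%. Of all 32851 RefSeq windows of this length, 21.2% held at least 1 SOX-type match and 0.0122% held 5 or more. The Cnp window held 1 SOX-type and 1 MYRF-type match, the Opalin window 1 SOX-type match, and the Mog window 1 MYRF-type match and no SOX-type match. MYRF-type matches occurred in 4.83% of all windows. The Cldn11 window held neither string and had 13 CG dinucleotides at 62.0% GC, beside medians of 4 CG and 51.5% GC over all windows. Of the 8 genes with an entry, 4 had at least 1 SOX-type match in a window. Counted by window, as the shares over all windows are, 5 of 10 held a SOX-type match and 3 of 10 a MYRF-type match. Overlapping windows of Mag share a SOX-type match. A match is a string of letters and does not show binding.

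All 9 are protein-coding genes in the GENCODE M21 annotation of GRCm38, and each lies apart from the others. Mbp (ENSMUSG00000041607.17), on chromosome 18 from 82475146 to 82585637 on the plus strand, lies 45.7 Mb from Vaultrc5 on the same chromosome. Mobp (ENSMUSG00000032517.16) lies on chromosome 9 from 120149707 to 120181484 (plus), and its exons overlap those of Gm38642 on the same strand. Cnp (ENSMUSG00000006782.16) lies on chromosome 11 from 100574904 to 100591729 (plus) and overlaps exons of Dnajc7 on the opposite strand. How the counting treated strand is not given in the sources used here, so reads of these overlapping exons could have been assigned to either gene. Mag (ENSMUSG00000036634.15) lies on chromosome 7 from 30899176 to 30914873 (minus), and Mal (ENSMUSG00000027375.14) on chromosome 2 from 127633226 to 127656695 (minus). Cldn11 (ENSMUSG00000037625.7) and Ugt8a (ENSMUSG00000032854.12) share chromosome 3, from 31149920 to 31164324 (plus) and from 125865271 to 125938619 (minus). Mog (ENSMUSG00000076439.12) lies on chromosome 17 from 37010743 to 37023398 (minus), and Opalin (ENSMUSG00000050121.9) on chromosome 19 from 41061710 to 41077113 (minus).

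The labels were checked first. Wild-type liver libraries held 33, 39 and 48 counts of Vaultrc5, and the 3 knockout liver libraries held 0 each. Brain counts were 4, 1 and 4 for wild-type libraries and 0 for each knockout library, which is too few counts for the brain labels to be checked library by library. Snap25, a synaptic gene, had at least 31003 counts in every brain library and at most 3 in any liver library, and Alb, the albumin gene, had at most 5 in brain and at least 714287 in liver. The 6 brain libraries held 14844937 to 18567362 counts each, and the 6 liver libraries 23247425 to 27155478. The floor was set at 3 counts, equal to 0.165 to 0.198 CPM (the count divided by the scaled library size) in brain and 0.110 to 0.128 CPM in liver. Floors cover counting error only. The brain libraries differed strongly in markers of brain regions, as given below, so results in brain are also given without single libraries.

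The 9 genes spanned a wide range of levels in wild-type brain when set per length (CPM per kilobase of exon). Mbp, whose protein pulls the inner faces of the myelin membrane together, stood highest at 239 ± 149 CPM per kilobase (SD, n = 3), rank 72 of 32764 genes. Mobp, another small basic protein of compact myelin, followed at 81.2 ± 51.3, and Cldn11, the claudin of the tight junctions that seal the lamellae, stood at 63.6 ± 36.2. Cnp, a phosphodiesterase of the uncompacted myelin channels, stood at 57.9 ± 28.2, and Mal, a proteolipid of membrane sorting, at 44.3 ± 23.0. These 5 stood highest of the 9. Mag, the adhesion protein that faces the axon, stood at 31.9 ± 17.9, and Mog, a surface protein of the outermost lamella, at 24.2 ± 14.3. Ugt8a, the enzyme that makes galactosylceramide, stood at 15.3 ± 10.2, and Opalin, a membrane glycoprotein of oligodendrocytes, was lowest at 5.18 ± 2.20, rank 7474. The ranges of mean ± SD of all neighbours in this order overlapped, and the order within a library was steadier. Cldn11 exceeded Cnp in 4 of 6 brain libraries and Cnp exceeded Mal in 5 of 6, and every other neighbouring pair stood in the same order in 6 of 6. In knockout brain the same scale gave 161 for Mbp, 60.2 for Mobp, 47.3 for Cldn11, 43.5 for Cnp, 36.4 for Mal, 22.9 for Mag, 16.2 for Mog, 10.8 for Ugt8a and 4.54 for Opalin.

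Across single brain libraries the 9 genes varied together, and the difference between libraries of one genotype exceeded the difference between genotypes. In wild-type libraries 1, 2 and 3, Mbp stood at 1649, 987 and 3432 CPM, and in knockout libraries 1, 2 and 3 at 1163, 1805 and 1130 CPM. Wild-type library 3 was the highest and wild-type library 2 the lowest, so the wild-type values enclosed those of the knockout. Mobp followed the same course, at 429, 286 and 953 CPM in wild-type brain and 324, 592 and 321 CPM in knockout brain. Cnp stood at 188, 121 and 323 CPM in wild-type brain and 142, 195 and 139 CPM in knockout brain. For both genes wild-type library 3 was again the highest and knockout library 2 second, and the genotypes overlapped.

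The adhesion and surface proteins had the same pattern. Mag stood at 112.0, 67.4 and 210 CPM in the wild-type libraries and 80.1, 119 and 80.1 CPM in knockout brain libraries. Mog stood at 30.9, 23.8 and 69.1 CPM in wild-type brain and 22.0, 38.7 and 22.1 CPM in knockout brain. Here too the knockout values lay within or just under the wild-type range, with knockout library 2 well above the other 2 knockout libraries. Cldn11 stood at 94.9, 66.7 and 195 CPM in wild-type brain and 69.2, 119 and 76.6 CPM in knockout brain, with the latter inside the wild-type range. Mal stood at 100.1, 74.0 and 195 CPM in wild-type brain and 68.5, 159 and 75.4 CPM in knockout brain. Mal was the gene in which knockout library 2 came nearest to wild-type library 3 after Opalin. The lipid enzyme gene Ugt8a stood at 53.9, 32.8 and 122 CPM in wild-type brain and 44.5, 66.5 and 35.5 CPM in knockout brain. Opalin stood at 12.8, 10.3 and 22.6 CPM in wild-type brain and 10.7, 20.2 and 9.14 CPM in knockout brain. Opalin had the narrowest range of the 9 genes and Ugt8a the widest, and in both the groups overlapped.

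**Figure D1:**
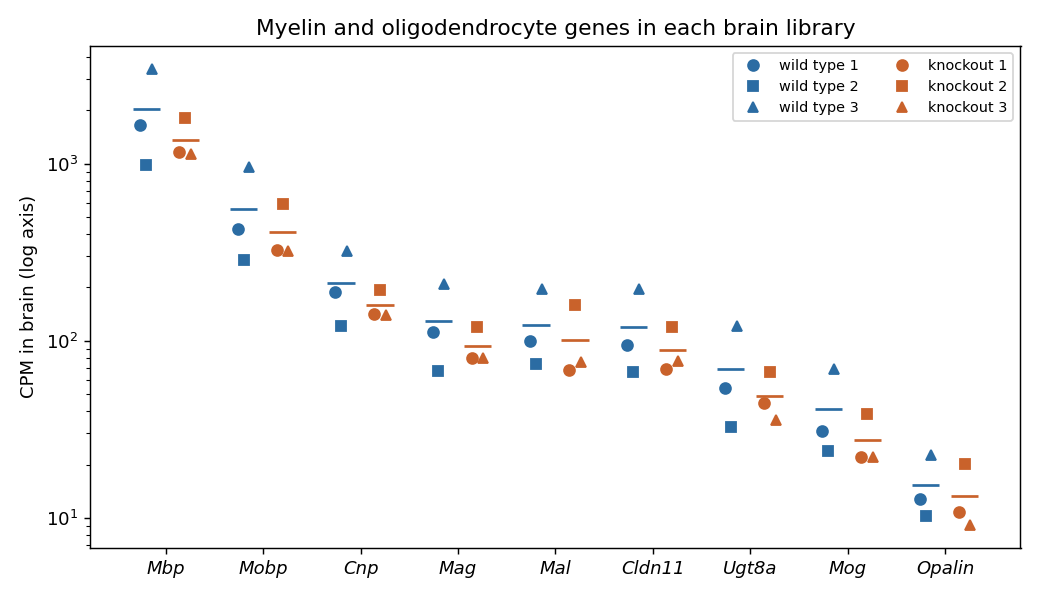
CPM (log axis) of each of the 9 genes in each of the 6 brain libraries; blue points are wild type, orange points knockout, the marker shape gives the library number and the horizontal lines are group means (n = 3). In every gene wild-type library 3 (blue triangle) is highest and knockout library 2 (orange square) second, as for Mbp at 3432 and 1805 CPM.

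Wild-type library 3 was the highest brain library for 9 of 9 genes, beside 21.2% of the 10360 genes with a mean of at least 10 CPM in brain. Knockout library 2 was second for 9 of 9. The ratio of the highest to the lowest brain library ran from 2.47 for Opalin to 3.71 for Ugt8a, where the median over the 10360 genes was 1.32 and 4.84% of them reached 2.47. Wild-type library 3 stood at 1.95 (Opalin) to 2.81 (Ugt8a) times the mean of the other 2 wild-type libraries. Against the mean of all other 5 brain libraries, 8 of the 9 genes were at least 2-fold higher in it, beside 0.743% of all 10360 genes. Knockout library 2 stood at 1.39 (Cnp) to 2.21 (Mal) times the mean of the other 2 knockout libraries. With wild-type library 3 set aside, the highest of the other 5 libraries was still 1.60 (Cnp) to 2.32 (Mal) times the lowest. In bulk tissue, fewer cells of a type and less RNA per cell cannot be told apart.

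The sum of the 9 genes was 2670, 1669 and 5522 CPM in wild-type libraries 1, 2 and 3 and 1924, 3115 and 1889 CPM in knockout brain libraries. The make-up of that sum moved much less than the sum itself. Mbp gave 58.0% to 62.1% of it in every brain library, a range of 1.07 times, and Mobp gave 16.1% to 19.0%. Mag (3.80% to 4.24%) and Cldn11 (3.54% to 4.05%) also kept nearly fixed shares. The widest ranges were those of Opalin, from 0.409% to 0.649%, and Mal, from 3.54% to 5.11%. Both had their highest share in knockout library 2 and their lowest in wild-type library 3. Cnp ran from 5.85% to 7.37%, Ugt8a from 1.88% to 2.31% and Mog from 1.15% to 1.43%. As a description over the 6 libraries, Pearson's r of each gene's log2(CPM + 1) with the mean of the other 8 ran from 0.940 for Opalin to 0.998 for Mobp, and from 0.930 to 0.994 without wild-type library 3. Within a library the 9 genes share the tissue sample and the depth.

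**Figure D2:**
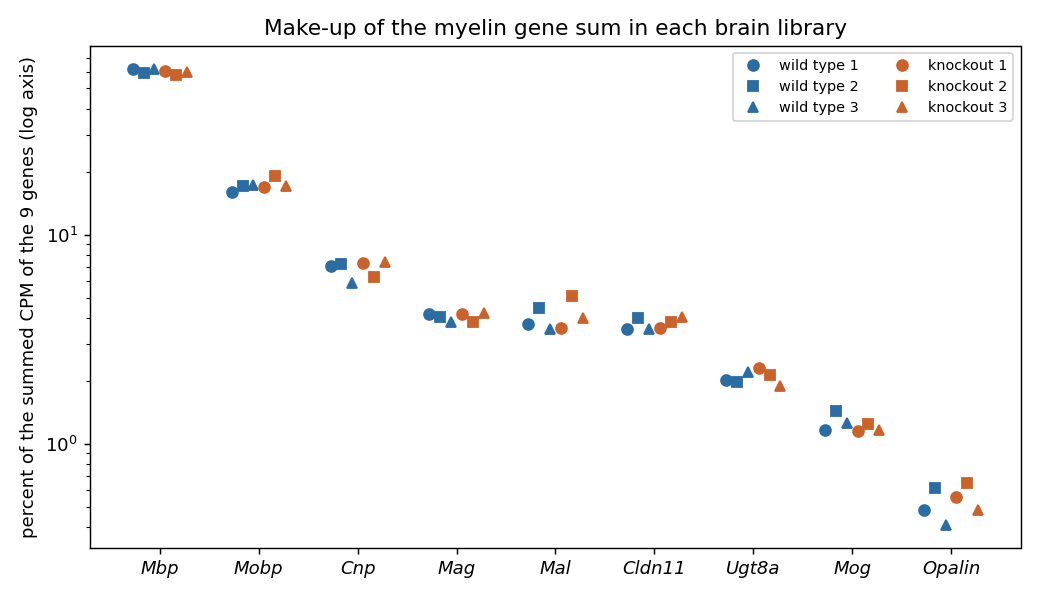
Percent of the summed CPM of the 9 genes (log axis) that each gene gave in each brain library; colours and marker shapes stand for genotype and library number. Mbp stays between 58.0% and 62.1%, while Opalin runs from 0.409% in wild-type library 3 to 0.649% in knockout library 2.

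The central comparison asked whether loss of Vaultrc5 altered myelin gene expression in the brain, and none of the 9 genes passed the test. Mbp had a mean of 2022 ± 1265 CPM in wild-type brain and 1366 ± 381 CPM in knockout brain (SD, n = 3 each), a log2 fold change (knockout over wild type) of -0.57 ± 0.45 (SE). Mog stood at 41.3 ± 24.3 and 27.6 ± 9.59 CPM, -0.58 ± 0.43, and Ugt8a at 69.4 ± 46.4 and 48.8 ± 15.9 CPM, -0.51 ± 0.48. The knockout means were the lower ones for these 3 genes, by about as much as the standard error. Mag gave -0.48 ± 0.40, Mobp -0.43 ± 0.47, Cldn11 -0.43 ± 0.41 and Cnp -0.41 ± 0.35. Mal, at -0.29 ± 0.45, and Opalin, at -0.19 ± 0.39, were nearest to 0. The edgeR quasi-likelihood adjusted p was 1.00 for all 9, and unadjusted p ran from 0.223 (Mog) to 0.649 (Opalin). In this comparison edgeR called 0 of 18075 genes (0%), with 122 genes (0.675%) at an unadjusted p under 0.05, and DESeq2 also called 0. The groups overlapped in CPM for 9 of 9 genes, where 4.23% of all tested genes did not overlap.

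All 9 log2 fold changes were negative, with a median of -0.43, beside a median of -0.01 over all genes, of which 51.7% were negative. As the 9 genes vary together over these libraries, they do not count as 9 separate observations. The direction rested on wild-type library 3. Without it, 0 of 9 were negative, and the values ran from 0.014 (Mog) to 0.22 (Mal) with a median of 0.13. Without knockout library 2 the 9 genes ran from -0.89 (Mog) to -0.57 (Cnp). Without wild-type library 2 they ran from -0.89 (Mbp) to -0.40 (Opalin). In that fit 3 of 9 had an unadjusted edgeR p under 0.05, beside 615 of all 18537 genes. With all libraries, 122 of 18075 genes were under 0.05. Without knockout library 3, 8 of 9 were negative and Opalin stood at 0.027. Without both libraries numbered 2, a choice made after seeing the data, the values ran from -1.16 to -0.81. The smallest edgeR adjusted p was 1.00. Wild-type library 2 was the lowest brain library for 6 of 9 genes, and knockout library 2 was second highest for 9 of 9. Dropping both therefore lowers the values by itself, and no conclusion is drawn from that fit. No gene of the 9 passed the edgeR adjusted threshold in any of these fits.

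**Figure D3:**
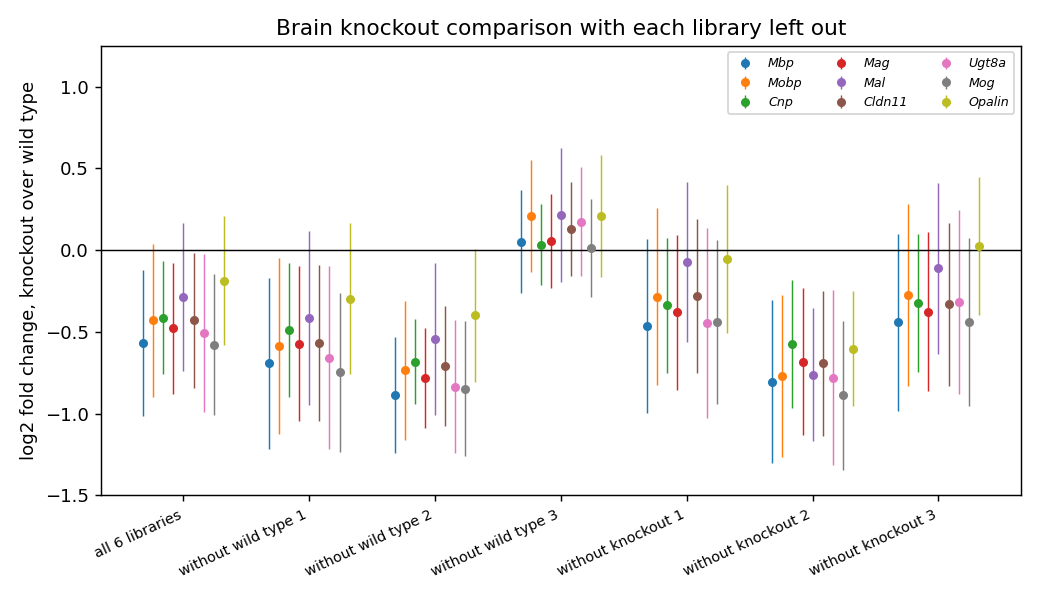
Log2 fold change (knockout over wild type, brain; bars are SE) of the 9 genes with all 6 libraries and with each library left out in turn. All 9 values lie below 0 with all libraries and all 9 lie above 0, from 0.014 to 0.22, without wild-type library 3.

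The other genes of the oligodendrocyte programme were read from lists chosen with earlier results of these data known, and edgeR called none of their genes in brain. Of 36 other mature oligodendrocyte and myelin genes, 35 were tested and 34 had a negative log2 fold change, with a median of -0.44. Klk6, a protease of mature oligodendrocytes, had the smallest p of that list (0.124 by edgeR, unadjusted) at -1.54 ± 0.88. It stood at 5.77, 0.882 and 14.5 CPM in wild-type brain and 3.76, 1.89 and 1.61 CPM in knockout brain, so the groups overlapped. Of the 12 lineage transcription factors, 8 were negative, with a median of -0.13. Sox10, the factor that drives myelin gene transcription, stood at 31.1, 23.8 and 51.4 CPM in wild-type brain and 20.7, 32.6 and 21.5 CPM in knockout brain, at -0.51 ± 0.31. Without wild-type library 3 the direction of the mature list ended, with 15 of 35 negative and a median of 0.01, and of the lineage factors 4 of 12 were negative (median 0.04). The order of Sox10 over the libraries was that of the 9 genes: wild-type library 3 highest, knockout library 2 second.

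The precursor, lipid and axonal lists had medians nearer to 0, with no test of the difference. Of 15 tested precursor and newly formed oligodendrocyte genes, 14 were negative with a median of -0.13, and Lhfpl3, a precursor gene, had the smallest p at -0.37 ± 0.19. Of 16 myelin lipid synthesis genes, 15 were negative with a median of -0.18, and Elovl7, a fatty acid elongase, had the smallest p at -0.47 ± 0.32. Of 14 axonal partners at the node and paranode, 8 were negative with a median of -0.01. Among them Nefh, the heavy neurofilament of large axons, gave -0.99 ± 0.54 and stood at 169 CPM in wild-type library 3 against 35.4 to 58.9 CPM in the other 5. Of 4 tested genes of peripheral myelin, 3 were negative (median -0.17), with Pmp22 at -0.45 ± 0.31. Without wild-type library 3, 7 of 15 precursor genes, 8 of 16 lipid genes, 4 of 14 axonal genes and 3 of 5 peripheral genes were negative, with medians of 0.01, 0.0053, 0.01 and -0.07. By sum over the list, the 36 mature genes ran from 2065 to 4120 CPM over the 6 libraries, the precursor genes from 721 to 1015 CPM and the lipid genes from 1730 to 2713 CPM. Wild-type library 3 was highest in each of these 3 sums, and the sum of the 9 genes had the widest range, from 1669 to 5522 CPM.

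Markers of brain regions moved between the same libraries. The 15 hindbrain and spinal cord markers, mostly Hox genes, summed to 210 CPM in wild-type library 3 and to 0.937 to 20.6 CPM in the other 5. None of the 15 was at 0 counts in wild-type library 3, and 4 to 13 of the 15 were at 0 in each other library. Slc6a5, the glycine transporter of brainstem and spinal neurons, stood at 18.7, 0 and 134 CPM in wild-type brain and 12.5, 0.118 and 5.13 CPM in knockout brain. Hoxb5 stood at 17.5 CPM in wild-type library 3 and at 0 to 0.178 CPM elsewhere. The library with the most myelin gene RNA was thus the one with the most hindbrain marker RNA; the part of this in the 9 genes' values was not tested.

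The second highest library did not share that feature. Knockout library 2 had a hindbrain sum of 0.946 CPM, with 12 of the 15 markers at 0 counts, and a cerebellum sum over 9 markers of 131 CPM. Wild-type library 2 had 0.937 and 152 CPM in these sums, and the 9 genes were 1.60 (Cnp) to 2.15 (Mal) times higher in knockout library 2. The forebrain markers also differed between these libraries, with 899 CPM in knockout library 2, the highest of the 6 (mean log2 deviation over the genes 0.68), and 736 CPM (0.06) in wild-type library 2; their part in the 9 genes' values was not tested. The cerebellum sum was 566 to 2057 CPM in the other 4 libraries. Gabra6, a receptor subunit of cerebellar granule neurons, had 3 counts in wild-type library 2, 1 in knockout library 2 and at least 831 in each other brain library. The libraries numbered 1, both with high cerebellum sums of 2057 and 1915 CPM, had ratios of knockout to wild type from 0.684 (Mal) to 0.837 (Opalin). For the libraries numbered 3 the ratios ran from 0.292 (Ugt8a) to 0.431 (Cnp). The 9 genes were thus lower in the knockout library at numbers 1 and 3 and higher at number 2; the labels do not say that a number marks a pair.

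Markers of other cell types gave the following sums, for which no difference from the 9 genes was tested. The 8 neuron markers ran from 4615 to 6095 CPM, the 8 astrocyte markers from 4848 to 6100 CPM, the 7 endothelial markers from 140 to 163 CPM and the 8 microglia markers from 144 to 237 CPM. The neuron sum was 5732 CPM in knockout library 2, which was second highest for the 9 genes, and lowest in wild-type library 1. It was highest in wild-type library 2, which was lowest for the sum of the 9 genes. The astrocyte sum was also highest there, but the mean over the 8 astrocyte genes of the log2 deviation from their brain mean was lowest in wild-type library 2 (-0.17) and highest in wild-type library 3 (0.27), as for the 9 genes; its part in their values was not tested. The 6 choroid plexus markers ran from 4.74 to 657 CPM, with knockout library 1 highest, the 10 forebrain markers from 426 to 899 CPM and the 10 thalamus and hypothalamus markers from 179 to 497 CPM. By mean log2 deviation the thalamus and hypothalamus markers were highest in wild-type library 3 (0.47), the library highest for the 9 genes, and by sum in wild-type library 1. The 7 peripheral myelin genes ran from 93.2 to 158 CPM and were highest in wild-type library 2 by sum, while their mean log2 deviation was highest in wild-type library 3 (0.34 against 0.02). Hepatocyte markers summed to at most 3.15 CPM in any brain library. Among these lists and the regional ones, the genes with the smallest p in brain were Gja1, Tubb3, C1qa, Pecam1, Otx2, Tdo2, Tph2, Barhl1, Ppp1r1b and Synpo2, with unadjusted p from 0.00612 (Pecam1, at 0.46 ± 0.12) to 0.936 (Barhl1) and edgeR adjusted p of 1.00.

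**Figure D4:**
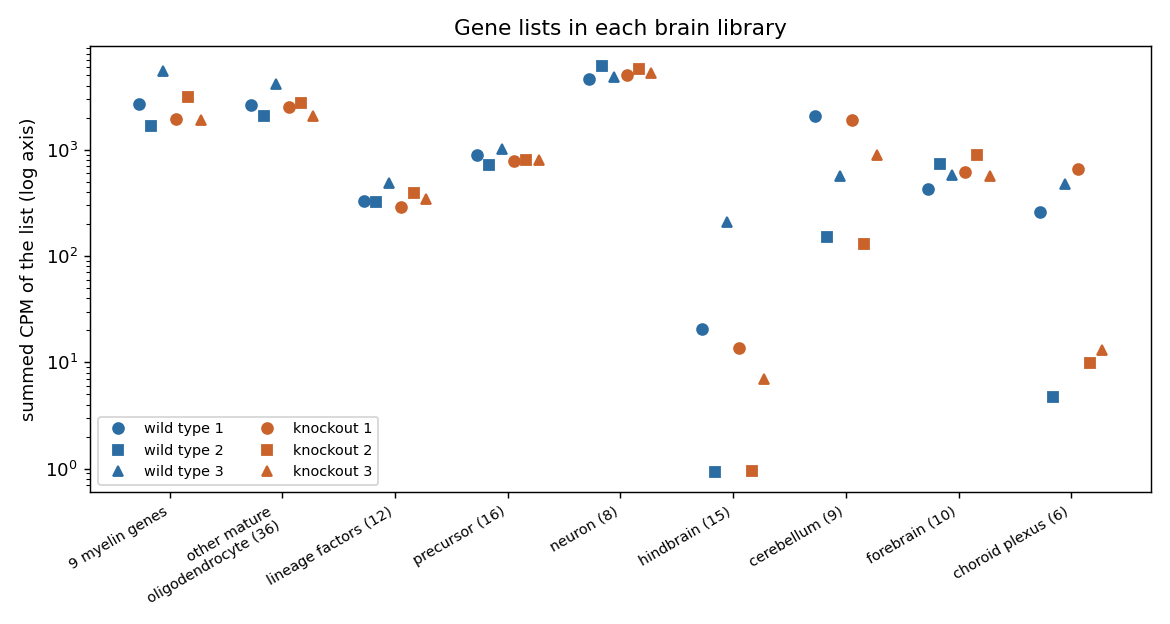
Summed CPM (log axis) of the 9 genes and of 8 other gene lists in each brain library; the number of genes is in brackets, colours and marker shapes give genotype and library number. Wild-type library 3 (blue triangle) is highest for the 9 genes at 5522 CPM and for the hindbrain markers at 210 CPM, and the libraries numbered 2 (squares) are lowest for hindbrain and cerebellum.

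The genes most like the 9 in their course over the 6 brain libraries, by Pearson's r of log2(CPM + 1) with the mean of the 9, were Erbb3, Ccp110, Selenop, Snx1 and Bcas1, at 0.996 to 0.998. The r describes 6 libraries, in each of which all genes share the tissue sample and the depth. Erbb3, a neuregulin receptor subunit, stood at 14.0, 9.87 and 27.7 CPM in wild-type brain and 11.1, 18.6 and 10.8 CPM in knockout brain. Bcas1, a marker of newly formed oligodendrocytes, stood at 109, 70.2 and 225 CPM in wild-type brain and 82.8, 129 and 78.4 CPM in knockout brain. These 2 genes had ranges as wide as those of the 9, at 2.81 and 3.21 times from lowest to highest library. Ccp110 (1.54 times), Selenop (1.58) and Snx1 (1.22) had much smaller ranges. Of 10351 other genes with a mean of at least 10 CPM, 94 (0.908%) had an r of 0.95 or more, and among the 33 mature oligodendrocyte genes ranked, 19 did.

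In liver Cnp and, at lower levels, Mbp and Mal lay above the floor of 3 counts in every library, and the other 6 genes did not. Counts of Cnp were 275, 299 and 266 for wild-type liver and 285, 262 and 321 for knockout liver, or 10.97 ± 0.599 and 11.9 ± 1.51 CPM. The genotypes overlapped, and at 3.01 CPM per kilobase in the wild type Cnp ranked 6879 of 32764 genes. Counts of Mbp were 32, 31 and 27 for wild-type liver and 56, 33 and 18 for knockout liver (1.18 ± 0.150 and 1.44 ± 0.691 CPM). Mal had 5 to 9 counts in each liver library, Ugt8a 2 to 12, and Mag 1 to 5. Mobp had 3 counts in wild-type liver library 3, 2 in knockout library 1 and 0 in the other 4. Cldn11, Mog and Opalin had 0 counts in all 6 liver libraries, which allows at most 0.110 to 0.128 CPM in a library. Cnp was thus the best measured of the 9 in liver, Mbp followed at 18 to 56 counts, and no other gene had more than 12 counts.

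**Figure D5:**
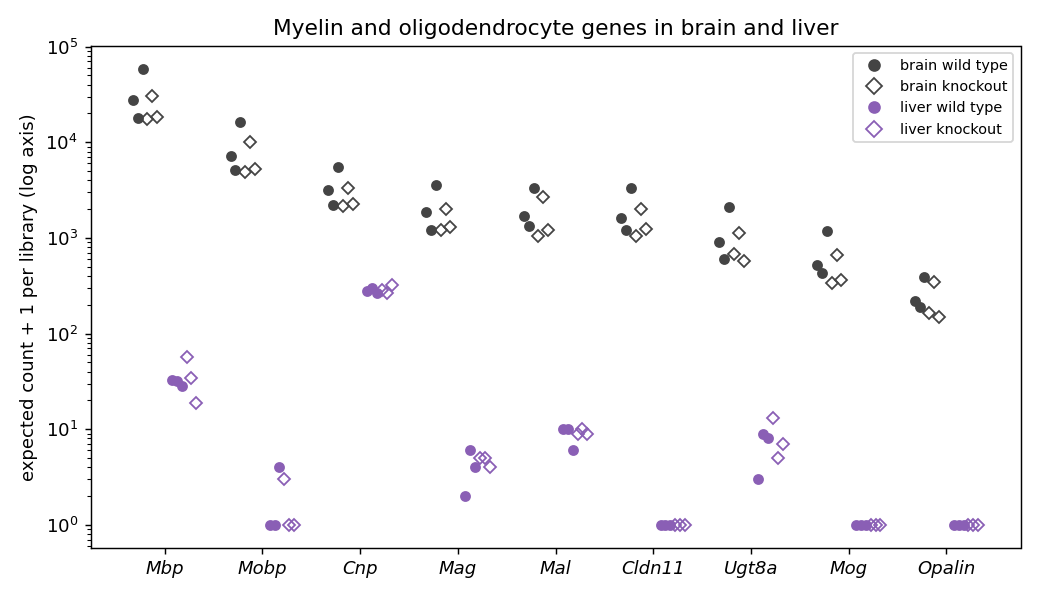
Expected count plus 1 per library (log axis) of each gene in brain (grey) and liver (purple); filled circles are wild type and open diamonds knockout. Brain and liver libraries do not overlap for any of the 9 genes, and Cnp is the only gene above 100 counts in liver, at 262 to 321.

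Between genotypes in liver, 2 of the 9 genes had enough counts to be tested, and neither passed. Cnp had a log2 fold change (knockout over wild type) of 0.12 ± 0.12 and Mbp of 0.29 ± 0.38, both with an edgeR adjusted p of 0.992 and unadjusted p of 0.368 and 0.464. Mbp was highest in knockout library 1 and lowest in knockout library 3, so its wild-type values lay within the knockout range. Without knockout liver library 1 Mbp turned to -0.12, and without knockout liver library 3 it stood at 0.59. The groups overlapped for both genes, where 9.84% of tested genes did not overlap. In liver edgeR called 0 of 15329 genes (0%), with 536 (3.5%) at an unadjusted p under 0.05, and DESeq2 called 10. Same-numbered liver libraries deviated together, and with the replicate number as a block edgeR called 2 genes, neither of them one of the 9. With that block Cnp stood at 0.11 ± 0.13 and Mbp at 0.21 ± 0.31. Of the 28 mature oligodendrocyte genes tested in liver, Car2, a carbonic anhydrase, had the smallest p (0.0317, unadjusted; edgeR adjusted 0.992) at 0.42 ± 0.16, and 8 of the 28 were negative, beside 48.7% of all genes. In the remaining oligodendrocyte and axonal lists the smallest p belonged to Sox5, Fyn, Elovl1, Kcna2 and Pmp22, and none had an unadjusted p under 0.05. In lists of other cell types and regions it belonged to Gja1, Rbfox3, P2ry12, Pecam1, Ttr, Fgb, Hoxb2, Cbln3 and Synpo2. Of these Pecam1, an endothelial gene, at 0.41 ± 0.10 (unadjusted p 0.00421), and P2ry12, a purinergic receptor gene of microglia, at 1.11 ± 0.37 (0.0190), were under 0.05 before adjustment, and edgeR called neither.

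Brain exceeded liver for all 9 genes in both genotypes. In the wild type edgeR called 9 of 9 higher in brain, where 43.9% of 18850 genes tested were called higher in brain and 34.7% lower. In the knockout edgeR also called 9 of 9 higher, beside 43.5% of 18785 genes higher and 35.2% lower. Mbp differed by 9.88 ± 0.60 on the log2 scale in the wild type (edgeR adjusted p 2.74e-06) and by 9.01 ± 0.46 in the knockout (adjusted p 1.58e-06). Mag differed by 9.20 ± 0.64 and 8.37 ± 0.28, Mal by 7.80 ± 0.51 and 7.33 ± 0.46, and Ugt8a by 7.40 ± 0.68 and 6.47 ± 0.39. The Mag values rest on 1 to 5 counts per liver library, with a wild-type liver mean of 0.155 CPM on this scale against a floor of 0.160 CPM. Cnp had the smallest difference, at 3.40 ± 0.34 in the wild type (edgeR adjusted p 4.76e-05) and 2.88 ± 0.17 in the knockout (3.27e-06). Wild-type library 3 of brain moved 2 of these by over 1.5 times: without it Mbp differed by 9.22 and Ugt8a by 6.69 in the wild type. With all libraries the wild-type value was the larger one for each of these 5, and the test of that difference is the interaction given last.

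For the genes at 0 in liver only a bound can be given, against a floor of 3 counts per library. In the wild type Cldn11 was at least 556-fold higher in brain, Mog at least 193-fold and Opalin at least 71.3-fold. Without wild-type brain library 3 the bounds were 368-fold for Cldn11, 125-fold for Mog and 52.9-fold for Opalin. In the knockout the bounds were at least 395-fold higher for Cldn11, at least 123-fold for Mog and at least 59.8-fold for Opalin. Without knockout brain library 2 they were 321-fold for Cldn11, 97.2-fold for Mog and 43.7-fold for Opalin. Mobp, with 3 counts over the 3 wild-type liver libraries, had a ratio of 7807 (95% exact Poisson interval for the liver count alone, 2671 to 37856), and of 8312 (2301 to 68633) in the knockout, with 2 counts. Each Mobp ratio rests on 1 liver library: without wild-type liver library 3 no count remained and Mobp was at least 2555-fold higher in brain, and without knockout liver library 1 at least 1777-fold. The wild-type Mobp ratio was 4900 without wild-type brain library 3 and 4983 without wild-type liver library 2, and the knockout ratio was 5520 and 5517 without knockout liver libraries 2 and 3. These folds depend on scaling, since the median log2 difference over all genes was 0.21 with TMM scaling and 1.05 with library totals in the wild type. With library totals the wild-type bounds became 1002-fold for Cldn11, 347-fold for Mog and 128-fold for Opalin, and Cnp differed by 4.25 on the log2 scale.

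The other lists of the oligodendrocyte programme held genes called in both directions; their counts stand beside 43.9% of all genes called higher and 34.7% called lower in wild-type brain, and no difference from the 9 genes was tested. Of 35 tested mature oligodendrocyte genes, 27 were called higher and 4 lower in wild-type brain than in liver. Apod, a lipid carrier, had the largest fitted difference and was at 0 in all liver libraries, with a mean of 101 ± 43.1 CPM (SD, n = 3) in wild-type brain. Gjb1, a gap junction gene that hepatocytes also use, had 598 ± 17.7 CPM in wild-type liver and 13.4 ± 8.32 CPM in brain, a difference of -6.34 ± 0.48. Of the 12 lineage factors 8 were higher and 3 lower, with Zfp536 at one end and Tcf7l2, an effector of Wnt signalling, at -2.74 ± 0.29 at the other. Of 15 precursor genes 12 were higher and 3 lower, from Bcas1 to Itpr2 at -1.98 ± 0.09. Of the 16 myelin lipid genes 5 were higher and 9 lower, from Fa2h, which makes hydroxylated fatty acids, to the ceramide synthase gene Cers2 at -3.34 ± 0.24. All 14 axonal partners were higher in brain, from Nefl to Ank3 at 3.53 ± 0.12. The lipid list, shared with hepatic lipid and sterol synthesis, was the one of these 5 lists in which most called genes were lower in brain.

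The genotype effect was compared between the tissues by an interaction term fitted on all 12 libraries (liver effect minus brain effect). None of the 9 genes passed. Mbp gave 0.84 ± 0.66, Cnp 0.50 ± 0.39, Mag 0.80 ± 1.07, Ugt8a 0.91 ± 1.00 and Mal 0.45 ± 0.86 on the log2 scale, each with an edgeR adjusted p of 1.00. For Mobp, Cldn11, Mog and Opalin no interaction is given, because no liver library had more than 3 counts. Mag, at 1 to 5 counts in liver, lies so close to the floor that its interaction is poorly measured. edgeR called 0 of 20141 genes (0%), with 489 (2.43%) at an unadjusted p under 0.05, and DESeq2 called 1. The brain side of each interaction carries the dependence on wild-type library 3 described above: without it Mal turned to -0.033, Mbp stood at 0.24 and Ugt8a at 0.26.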

How the data were processed

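The deposited values are expected counts, 1 per gene for each library, neither normalized nor pooled over replicates. Per the submitters' processing notes, cutadapt, STAR and the mm10 build were used; which tool counted, and whether by strand, is not given in the sources used here. Per the labels' protocols, libraries were stranded, ribosomal RNA-depleted and read single-end. Values that were not whole were 5.06% to 5.71% of those in a library; all values of the 9 genes were whole. Counts were rounded.

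Groups came from sample titles and genotype labels. Groups were compared by edgeR (version 4.0.16 in R 4.3.3) with its quasi-likelihood test, robust estimation and TMM scaling. filterByExpr kept genes with a minimum count of 10 and a total of at least 15, and p-values were adjusted by Benjamini-Hochberg over all genes tested, with 0.05 as threshold. The fits held the 6 libraries compared, and the interaction all 12. An SE is the size of the log2 fold change over the root of its F statistic. CPM used TMM sizes within each tissue, and log2 CPM a pseudocount of 1. DESeq2 1.42.0 was the alternative test; other scalings, filters, fits and left-out libraries were also tried. The 12 pairs of replicates differed by 27.2 to 228 times their chi-square degrees of freedom, so none agreed within sampling noise. Deviations of same-numbered liver libraries correlated at 0.25 to 0.34 over 13321 genes, so replicate numbers were taken as pairing there, from the data and not the labels. The fit without a block was kept as the main one, so liver p-values ignore that pairing unless a block is named. Identifiers of all 55450 genes matched GENCODE M21, whose exon lengths gave CPM per kilobase. The statistics were tested on simulated data.

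The members and lists were chosen with earlier results of these data known. Named were the 9 genes in every comparison, the gene with the smallest p of each of 16 other lists in the knockout comparison within each tissue, where none was called, the called genes with the largest and smallest difference between tissues in the wild type for the oligodendrocyte and axonal lists, and the 5 genes most like the 9 in brain; 1 gene that the rule names is not reported here.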

Additional observations from a re-analysis of the deposited data

How the results depend on the processing

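No count of called genes among the 9 changed: it was 0 in brain, 0 in liver and 0 in the interaction, and 9 in both tissue comparisons, under each alternative scaling, filter, test and left-out library run. Directions did change, for the 9 genes in brain, for Mbp in liver and for Mal in the interaction. Leaving out 1 brain library moved the log2 fold change of Mbp over -0.89 to 0.052, Mog over -0.89 to 0.014, Mag over -0.78 to 0.056, Mobp over -0.77 to 0.21, Cnp over -0.68 to 0.034, Mal over -0.76 to 0.22, Cldn11 over -0.71 to 0.13, Ugt8a over -0.84 to 0.17 and Opalin over -0.60 to 0.21; every positive value came without wild-type library 3, apart from Opalin at 0.027 without knockout library 3. Left-out libraries moved liver Mbp over -0.12 to 0.59, with the negative value without knockout library 1, and the Mal interaction over -0.033 to 0.98; the cause was not tested.

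Over all genes, calls in brain stayed at 0 under each setting. In liver they were 10 with DESeq2, 4 with no filter on low counts, 2 with the replicate block and 0 to 1 with single libraries left out. In the interaction they were 1 with DESeq2 and 2 with the replicate block. In brain, same-numbered libraries correlated in their deviations at 0.62, 0.65 and -0.01, so the numbers were not taken as pairing; with the block the 9 genes ran from -0.48 to -0.19 (median -0.33) and none was called. Between tissues, same-numbered libraries correlated at most at 0.06, and the block changed no call of the 9. Depth limits the liver values of Mobp, Cldn11, Mog and Opalin, which lie at or under 3 counts.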
